A study of Mus musculus with 7 samples.

Results

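Melanosomes are the pigment organelles of melanocytes and belong to the lysosome-related organelles. Their cargo is delivered from endosomes by the AP-1 and AP-3 adaptors and the BLOC complexes (biogenesis of lysosome-related organelles complexes), with the small GTPases Rab32 and Rab38, which BLOC-3 activates. Mature melanosomes carry Rab27a, which binds melanophilin (Mlph), and melanophilin recruits the actin motor myosin Va (Myo5a), so that the organelle is held at the cell periphery. Loss of Rab27a, melanophilin or myosin Va lightens the coat of mice. A group of 10 genes of this machinery is described here, named by symbol: the transport genes Rab27a, Mlph, Myo5a and Mreg, the Rab GTPase genes Rab32 and Rab38, the BLOC subunit genes Hps4 and Hps5, and the melanosome-associated genes Gpnmb and Trpm1. Each of the 10 had 1 probe set of its own, among 19938 genes with such a probe set.

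Expression was profiled in 7 samples, with 1 Affymetrix mouse gene array for each. MDEC, mouse dermal endothelial cells labelled PECAM1+, gave 1 array. The others came from B16F10, a pigmented mouse melanoma line: clones A2, A3, A4 and A5, labelled PECAM1+ (n = 4), and clone A1 with the parental cells, labelled PECAM1− (n = 2). PECAM1 (CD31) is a surface glycoprotein by which endothelial cells adhere to each other. Pecam1 levels followed the labels, at 11.72 in MDEC and between 11.00 and 11.07 in the PECAM1+ clones, against 5.43 in clone A1 and 5.27 in parental cells. The labels name no agent or genotype and do not say how the clones arose, whether they are independent or whether samples came from separate cultures, so p-values measure only the spread between these arrays, which may be technical. MDEC were grown with an endothelial supplement and B16F10 with serum, so cell type and medium cannot be told apart.

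All values are log2 expression levels, in which 1 unit is a 2-fold difference, and levels are compared between arrays and never between genes. Array medians over all probe sets lay between 6.12 and 6.18. No detection calls were given, so values near or below those medians cannot be separated from background. Of the markers looked at, 7 of 7 for melanocytes were lower in MDEC than on every B16F10 array, 6 of 6 for endothelial cells were higher, and those for platelets (4 of 5 measured) had a mean level of 5.20 in MDEC against 4.76 to 4.97 in B16F10. Clone A1 stood apart from the other B16F10 arrays. The mean level of 7 cycling-cell markers (of 8 listed) was 10.7 to 10.9 in the PECAM1+ clones against 7.10 in clone A1 and 10.9 in parental cells, and 20.5% of all genes differed between the PECAM1+ clones and clone A1 by limma (adjusted p under 0.05), against 0.0100% between the clones and parental cells. Results are therefore given with and without clone A1. In MDEC the mean level of the cycling-cell markers was 7.99, and its part in the MDEC values was not tested.

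Among the transport genes, the levels of Rab27a, Myo5a and Mreg ranged over 0.54 to 0.83 among the PECAM1+ clones, while the means of PECAM1+ and PECAM1− samples differed by 0.01 to 0.20. Rab27a, the GTPase at the head of the transport complex, was at 10.45, 9.64, 10.40 and 10.09 in clones A2, A3, A4 and A5, against 10.07 in clone A1 and 10.20 in parental cells. Clone A3 was the lowest B16F10 array, and the PECAM1− samples lay inside the range of the clones. The difference, PECAM1+ minus PECAM1−, was 0.01 (95% interval −0.61 to 0.63).

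Myo5a, the motor, was at 9.94, 9.50, 10.32 and 9.79 in clones A2, A3, A4 and A5, against 9.99 in clone A1 and 9.50 in parental cells. Clone A4 was highest, clone A3 and parental cells were lowest, and the groups overlapped. The difference was 0.14 (95% interval −0.51 to 0.80). Mreg encodes melanoregulin, which links melanosomes to the dynein motor for movement toward the cell centre. Its level was 10.08, 9.75, 10.29 and 9.85 in clones A2, A3, A4 and A5, against 9.73 in clone A1 and 9.86 in parental cells. Parental cells lay inside the range of the clones and clone A1 just below it.

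Mlph was the transport gene in which clone A1 stood apart. Its level was 11.80, 11.58, 11.93 and 11.60 in clones A2, A3, A4 and A5, against 10.84 in clone A1 and 11.63 in parental cells. The clones lay 0.89 ± 0.17 (SE) above clone A1 (limma adjusted p = 0.0347, higher in 4 of 4 clones). Against parental cells the difference was 0.10 ± 0.16, with a limma adjusted p of 0.980. The call against clone A1 was lost without clone A2 (limma adjusted p = 0.0981), A3 (0.0739) or A5 (0.0865), while the difference lay between 0.82 and 0.94 with any 1 clone left out. The cycling-marker gap of clone A1 stands beside this and the next results against it, and its part in them was not tested.

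**Figure D1:**
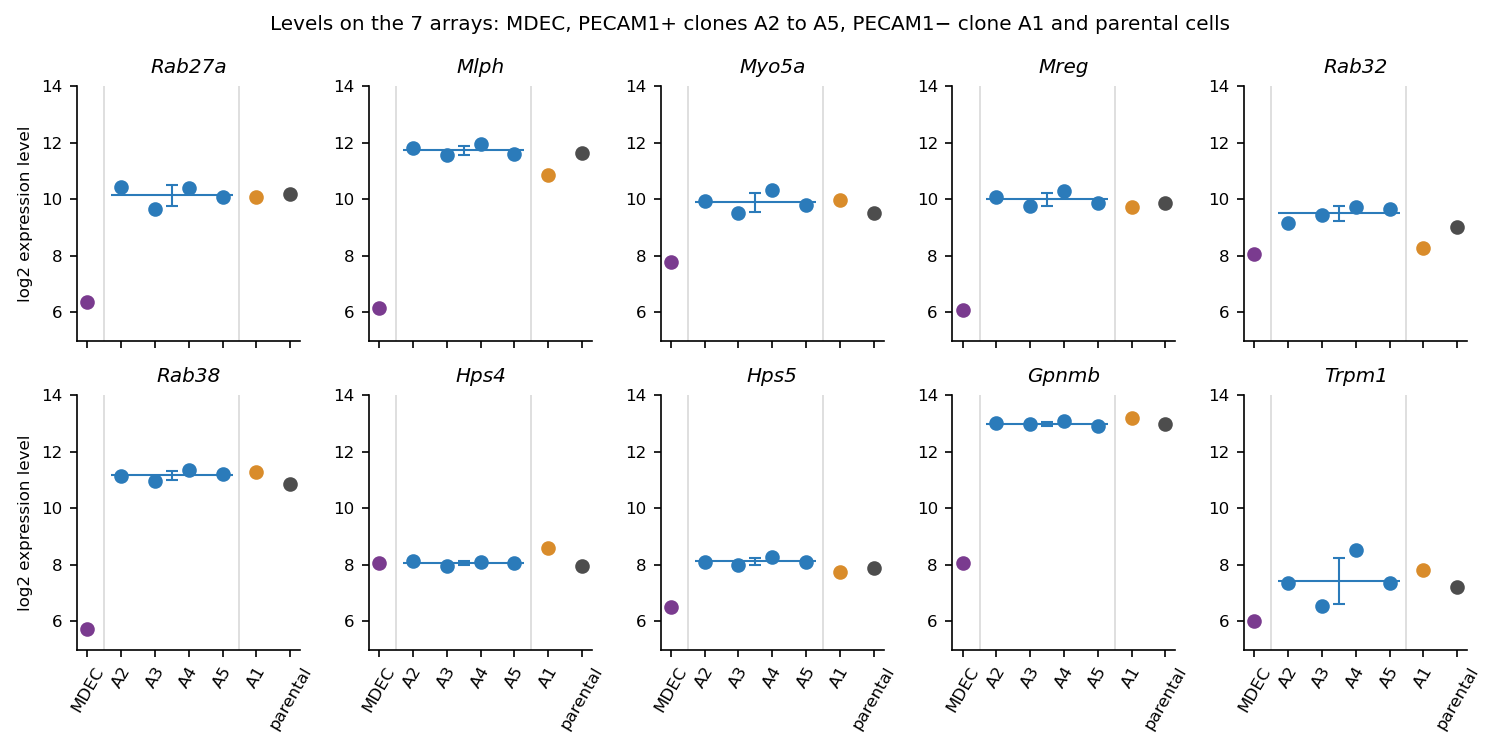
Log2 expression level (vertical axis) of each of the 10 genes on the 7 arrays (horizontal axis), with MDEC in purple, PECAM1+ clones A2 to A5 in blue, clone A1 in orange and parental cells in dark grey; the blue line and bar are the mean and SD of the 4 clones. Mlph stood at 10.84 and Rab32 at 8.29 in clone A1, below all 4 clones, and Trpm1 ran from 6.53 in clone A3 to 8.51 in clone A4.

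The Rab GTPases of cargo delivery, Rab32 and Rab38, differed from each other in pattern. Rab32 was at 9.16, 9.46, 9.71 and 9.67 in clones A2, A3, A4 and A5, against 8.29 in clone A1 and 9.01 in parental cells. All 4 clones were above both PECAM1− samples. The difference of 0.85 ± 0.26 (SE) from both PECAM1− samples did not pass (limma adjusted p = 0.446). Against clone A1 alone it was 1.21 ± 0.25, a 2.31-fold higher level (limma adjusted p = 0.0430), and against parental cells alone 0.49 ± 0.25 (limma adjusted p = 0.541). Without clone A3, A4 or A5 the call against clone A1 was lost (limma adjusted p = 0.119 without A3, 0.0879 without A4 and 0.117 without A5), as it was when all probe sets were tested (0.0567). Rab38, mutated in chocolate mice, was at 11.14, 10.97, 11.35 and 11.22 in clones A2, A3, A4 and A5, against 11.29 in clone A1 and 10.86 in parental cells. Parental cells were the lowest array and clone A1 lay inside the range of the clones. Its difference from both PECAM1− samples was 0.10 (95% interval −0.30 to 0.50).

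Of the BLOC subunit genes, Hps4 was lower than in clone A1 and Hps5 did not pass against it. Hps4 encodes a subunit of BLOC-3, the activator of Rab32 and Rab38. It was at 8.13, 7.96, 8.10 and 8.07 in clones A2, A3, A4 and A5, against 8.58 in clone A1 and 7.97 in parental cells. Clone A1 was above every other array, and parental cells lay inside the range of the clones. The clones fell by 0.51 ± 0.08 (SE) relative to clone A1 (limma adjusted p = 0.0241, lower in 4 of 4 clones), a call lost without clone A4 (limma adjusted p = 0.0559) or A5 (0.0814). Against parental cells the difference was 0.09 ± 0.08 (limma adjusted p = 0.819). Hps5 encodes a subunit of BLOC-2, which steers cargo carriers to melanosomes. Its level was 8.12, 7.98, 8.27 and 8.09 in clones A2, A3, A4 and A5, against 7.75 in clone A1 and 7.88 in parental cells, so all clones lay above both PECAM1− samples. The difference of 0.30 ± 0.11 had a limma adjusted p of 0.488, and that of 0.37 ± 0.12 from clone A1 alone one of 0.123.

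Gpnmb encodes a transmembrane glycoprotein of melanosomes related to Pmel, and it was the steadiest of the melanosome-associated genes. It was at 13.00, 12.97, 13.07 and 12.89 in clones A2, A3, A4 and A5, against 13.19 in clone A1 and 12.98 in parental cells. These levels lay near the highest value on any array, 13.54, and whether this narrowed their spread was not tested. Clone A1 was the highest array, by a margin that did not pass (−0.21 ± 0.08 for the clones minus clone A1, limma adjusted p = 0.151). Trpm1 encodes melastatin, a cation channel of melanocytes and retinal bipolar cells. It was at 7.35, 6.53, 8.51 and 7.35 in clones A2, A3, A4 and A5, against 7.80 in clone A1 and 7.23 in parental cells, with an identical value in clones A2 and A5. Both PECAM1− samples lay between clones A3 and A4. The interval of its PECAM1+ minus PECAM1− difference was correspondingly wide, from −1.44 to 1.28.

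Over the 10 genes, 0 passed the limma test between PECAM1+ clones and PECAM1− samples (adjusted p from 0.446 to 0.995, n = 4 and 2), where 0.0100% of all genes passed. At an unadjusted p under 0.05 there were 2, Rab32 and Hps5, where 9.18% of all genes reached it. The groups did not overlap for these same 2 genes, both higher in the clones, against 16.4% of all genes in either direction and 7.73% higher. Against parental cells alone, 0 of the 10 passed (limma adjusted p from 0.538 to 1.00), 0 had an unadjusted p under 0.05 against 13.5% of all genes, and 3 did not overlap, all of them higher in the clones (Rab38, Rab32 and Hps5), against 42.7% of all genes in either direction and 20.6% higher. Against clone A1 alone, 2 passed as higher (9.33% of all genes) and 1 as lower (11.2% of all genes), and 6 did not overlap against 59.9% of all genes, 4 of them higher (31.2% of all genes) and 2 lower (28.7%). Counts of this size among 10 genes are not read as a result about them. The median difference of the 10 genes was 0.12 from both PECAM1− samples, −0.01 from clone A1 and 0.17 from parental cells, where the median of all genes was 0.00 in each comparison. The comparisons share the 4 PECAM1+ arrays, and each lone sample was assumed to vary like the clones.

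**Figure D2:**
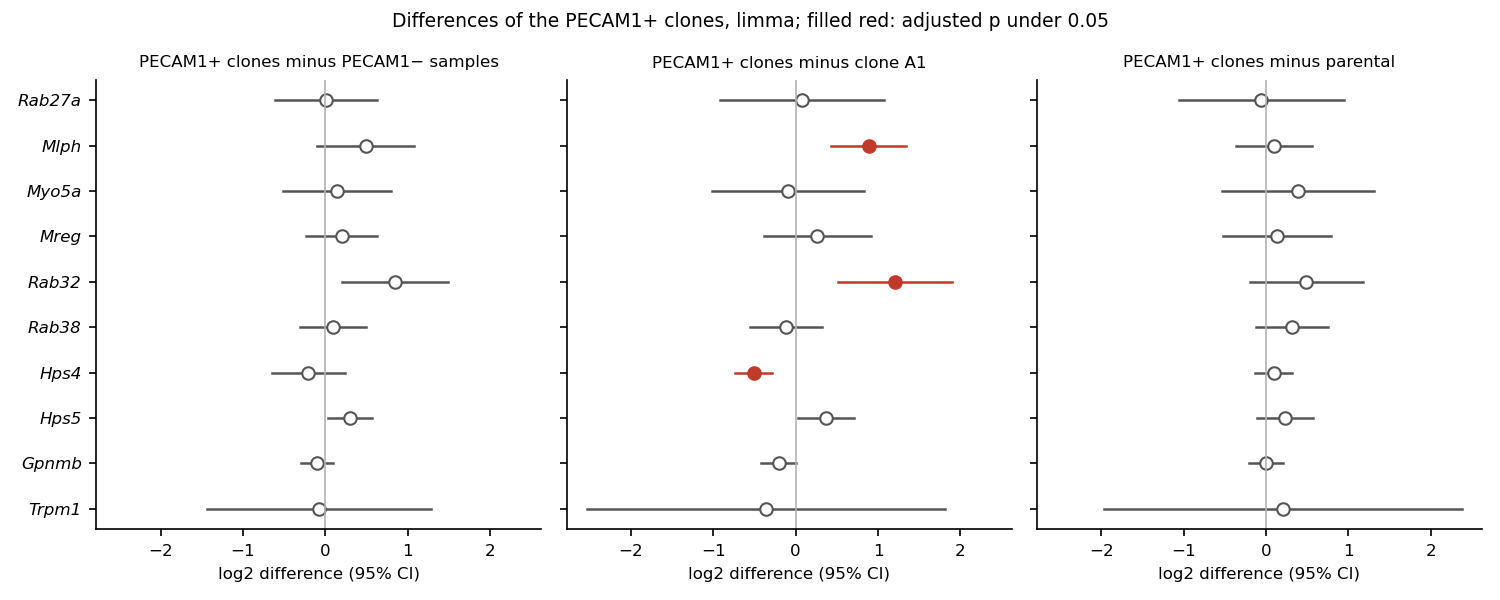
Log2 difference of the PECAM1+ clones (horizontal axis, 95% limma interval) from both PECAM1− samples, clone A1 and parental cells, for each of the 10 genes; filled red points have an adjusted p under 0.05. Mlph (0.89), Rab32 (1.21) and Hps4 (−0.51) passed against clone A1, and 0 of the 10 passed in the other panels.

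The PECAM1+ clones themselves fell in a recurring order, with clone A4 high and clone A3 low. Clone A4 was above clone A3 for 10 of the 10 genes, against 37.8% of all genes. It was the highest of the 4 clones for 8 (19.6% of all genes), the exceptions being Rab27a and Hps4, in which clone A2 was highest, as in 25.8% of all genes. Clone A3 was the lowest for 8 (17.2% of all genes), the exceptions being Rab32, lowest in A2 (23.4% of all genes), and Gpnmb, lowest in A5 (17.2%). Both held for 6 genes, Mlph, Myo5a, Rab38, Mreg, Trpm1 and Hps5, against 5.47% of all genes. The median of clone A4 minus clone A3 was 0.37 over the 10 genes and 0.00 over all genes. Each clone is 1 array, the order was noticed in these values, and no test of it was made. The shares of all genes include genes near background, and identical values count as neither highest nor lowest. The counts were the same after quantile normalization and after median centring.

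The gap between clones A4 and A3 ranged from 0.10 for Gpnmb to 1.98 for Trpm1, a 3.95-fold difference. It was 0.83 for Myo5a, 0.76 for Rab27a, 0.54 for Mreg, 0.38 for Rab38, 0.36 for Mlph, 0.29 for Hps5, 0.26 for Rab32 and 0.13 for Hps4. A gap of 1 unit or more in that direction was present in 0.326% of all genes, here Trpm1. In clone A3 Trpm1 was at 6.53, near the array medians, where background cannot be told apart, so its gap may be understated. Spread within the PECAM1+ group was widest for Trpm1, with an SD over the 4 clones of 0.81, and 99.8% of all genes had a smaller one. Rab27a, with an SD of 0.37, stood above 97.7% of all genes and Myo5a, with 0.34, above 97.1%. These shares are over all genes, those near background included, and not over genes of like level. Hps4 and Gpnmb, with SDs of 0.07 and 0.08, were below the median SD of all genes, 0.10. Over the 20 nearest measured neighbours of each gene, by order on the chromosome, the median of clone A4 minus clone A3 lay between −0.08 and 0.06.

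The cargo genes of the melanosome were described beside them. Of 9, which encode pigment enzymes, matrix proteins, transporters and the receptor Gpr143, clone A4 was the highest of the 4 clones in 9 and clone A3 the lowest in 8, the exception being Tyrp1, with a median gap of 0.72. Oca2 is counted in both, but it lay at 5.41 to 6.00 in clones A2, A3 and A5. These values are below the array medians, so which of these clones was lowest cannot be told. Tyr, the rate-limiting enzyme of melanin synthesis, was at 10.29, 9.63, 10.84 and 10.38 in clones A2, A3, A4 and A5, against 10.29 in clone A1 and 8.49 in parental cells. Mitf, the transcription factor that drives the melanocyte programme, was at 11.87, 11.50, 11.95 and 11.69, against 11.37 in clone A1 and 11.94 in parental cells. Clone A3 was the lowest and clone A4 the highest of the 4 for Mitf, but most of the listed pigment lineage factors did not show this order. Of 8 such genes, Mitf included, clone A4 was above clone A3 in 2 (Mitf and Sox10), both conditions held for 1, and the median gap was −0.04. Tfec (4.29 to 4.61 in B16F10) and Lef1 (5.31 to 5.43, identical in clones A3 and A4) lay below the array medians and cannot show an order. The gaps of the rest were −0.02 for Tfeb, −0.07 for Pax3, −0.10 for Usf1 and −0.41 for Tfe3. The mean level of the cycling-cell markers was 10.7 in clone A4 and 10.9 in clone A3, and its part in the order was not tested.

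**Figure D3:**
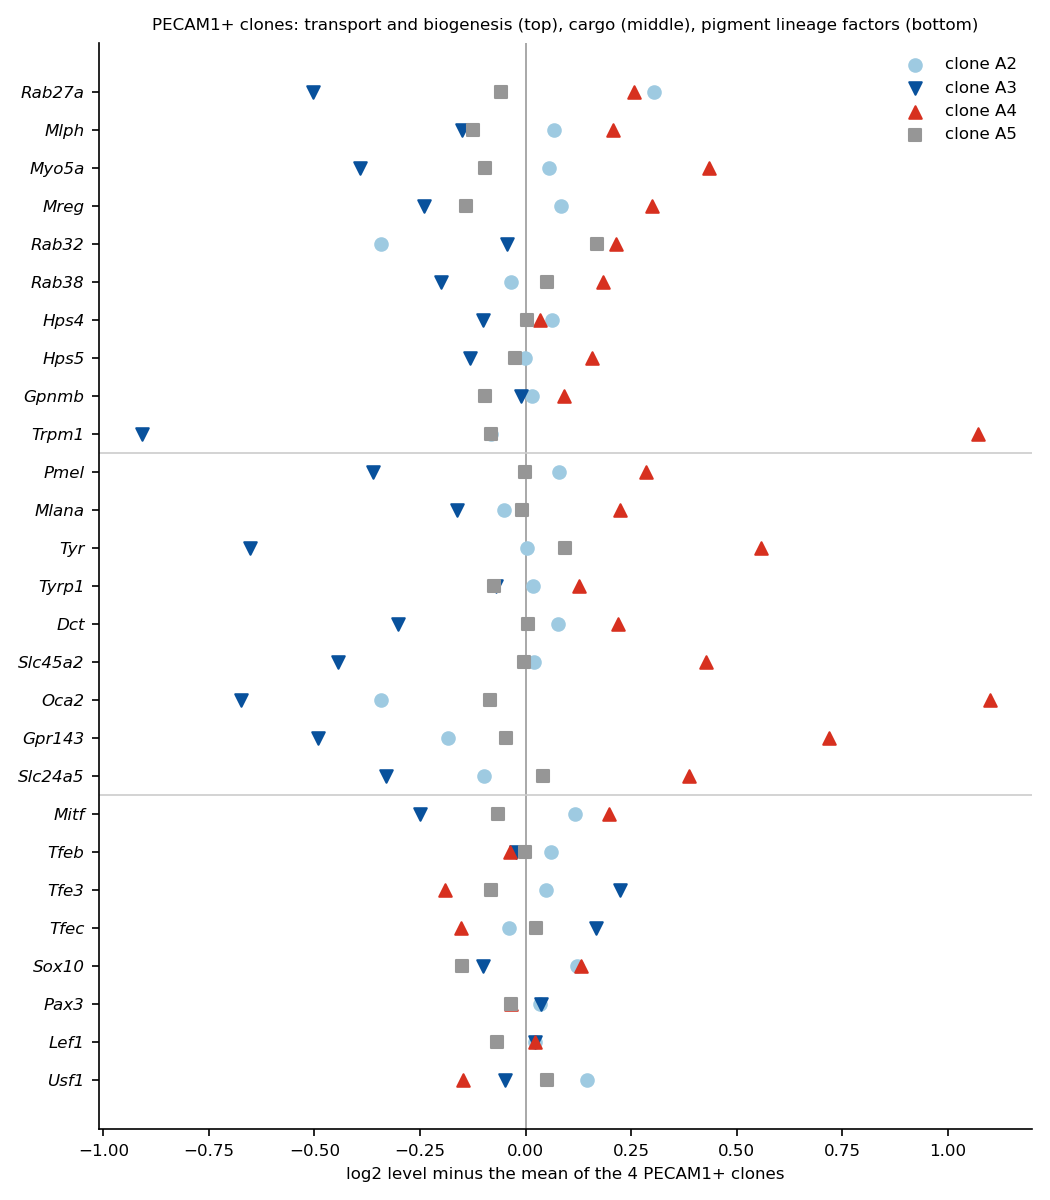
Log2 level of each gene in PECAM1+ clones A2, A3, A4 and A5 minus the mean of these 4 clones (horizontal axis), for the 10 transport and biogenesis genes, 9 cargo genes and 8 pigment lineage factors. Red triangles of clone A4 lie right of the dark blue triangles of clone A3 for all 10 and all 9 but for 2 of the 8 factors, with the widest gap for Trpm1 among the 10 genes (1.98).

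E-box letters in the promoters were looked up because the MITF family binds such motifs. A part of that family in the order of the clones was not tested. The windows, from RefSeq on GRCm38.p6, run from 250 bases before to 50 bases after a gene's start. 9 of the 10 genes matched, with 12 windows, and Rab38 had none. CACGTG, which reads the same on both strands, was in windows of Rab27a, Mlph, Trpm1 and Hps5, 4 of 9 genes, and in 8.09% of all 27025 genes with a window. CATGTG, on either strand, was in windows of Trpm1 only among the 9, against 15.9% of all genes, and its longer form TCATGTG in 1 Trpm1 window, against 4.31% of all genes. A match describes letters in a window and not a bound site. Matches and the order of the clones did not go together throughout. Rab27a, with a match, was highest in clone A2, while Myo5a and Mreg followed the order without a match. The windows that hold a match before the start are shown from 250 bases before the start up to it, 5′ to 3′ on the gene's strand, with the match in capitals:
Mlph, chr1:90914850-90915099, + strand: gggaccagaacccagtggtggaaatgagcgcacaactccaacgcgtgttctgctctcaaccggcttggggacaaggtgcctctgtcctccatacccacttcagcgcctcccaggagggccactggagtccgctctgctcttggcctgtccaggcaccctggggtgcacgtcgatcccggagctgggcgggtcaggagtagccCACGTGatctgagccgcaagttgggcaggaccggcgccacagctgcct
Rab27a, chr9:73063898-73064147, + strand: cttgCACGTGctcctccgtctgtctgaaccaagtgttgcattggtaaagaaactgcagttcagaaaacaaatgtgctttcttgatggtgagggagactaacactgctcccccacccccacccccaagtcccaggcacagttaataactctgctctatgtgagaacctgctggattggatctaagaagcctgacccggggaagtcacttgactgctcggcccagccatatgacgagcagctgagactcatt
Trpm1, chr7:64153585-64153834, + strand: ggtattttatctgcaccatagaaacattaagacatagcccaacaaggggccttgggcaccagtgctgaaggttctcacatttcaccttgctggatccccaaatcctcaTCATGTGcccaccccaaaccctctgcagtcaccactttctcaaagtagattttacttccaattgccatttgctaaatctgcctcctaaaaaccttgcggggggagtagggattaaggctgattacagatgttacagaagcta
Trpm1, chr7:64185209-64185458, + strand: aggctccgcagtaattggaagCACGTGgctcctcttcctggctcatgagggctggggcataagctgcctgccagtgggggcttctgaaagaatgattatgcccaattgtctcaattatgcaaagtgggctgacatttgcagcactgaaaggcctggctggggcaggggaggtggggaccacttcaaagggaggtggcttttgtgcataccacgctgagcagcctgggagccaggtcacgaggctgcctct
Hps5, chr7:46795882-46796131, − strand: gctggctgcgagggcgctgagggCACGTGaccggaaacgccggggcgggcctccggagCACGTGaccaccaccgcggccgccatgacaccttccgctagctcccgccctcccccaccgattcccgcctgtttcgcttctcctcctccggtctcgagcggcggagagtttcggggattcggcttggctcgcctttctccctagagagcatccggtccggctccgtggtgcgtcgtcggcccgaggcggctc

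The match lies 48 bases before the start in Mlph and 246 before it in this window of Rab27a, whose other window has none. In Trpm1 the upstream window has TCATGTG 142 bases before its start, and the other has CACGTG 229 bases before its start, with CATGTG on the opposite strand after it. Hps5 has CACGTG at 227 and at 192 bases before the start.

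Trpm1 is also the host of a microRNA gene. Mir211 lies inside the annotated span of Trpm1 on chromosome 7, and its mature 5′ product, from RefSeq with the seed (bases 2 to 8) in capitals, is shown because its host gene varied most of the 10 over B16F10:
mmu-miR-211-5p: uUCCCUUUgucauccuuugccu
The Mir211 probe set gave 6.86 in MDEC, inside the range of the B16F10 arrays. Its levels were 6.83, 6.83, 6.92 and 6.99 in clones A2, A3, A4 and A5, against 6.77 in clone A1 and 6.88 in parental cells. Its range over the 6 B16F10 arrays was 0.22, against 1.98 for Trpm1. A signal of the precursor cannot be told from background at these levels.

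In MDEC most of these genes were lower than in any B16F10 array, and the BLOC-3 gene Hps4 was not. MDEC gave 1 array of another cell type, and no test was made. Genes were counted whose MDEC level was 4-fold or more away from the average of the PECAM1+ mean and the PECAM1− mean and was not between the lowest and the highest of the 6 B16F10 values. By that count 6 of the 10 were lower in MDEC, where 2.01% of all genes were, and 0 were higher (2.72% of all genes). For 9 of the 10, MDEC lay below every B16F10 array, against 26.3% of all genes. The median difference of the 10 was −2.91 and that of all genes 0.00. The members were chosen as pigment cell genes, so this direction is a description and not evidence about them. In these bulk samples fewer cells of a type and less RNA per cell cannot be told apart.

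The MDEC levels of Mlph, Rab27a, Mreg, Rab38, Trpm1 and Hps5 lay near or below the array medians, where background cannot be told apart, so their folds may understate a difference. Among transport genes, Mlph was at 6.16 in MDEC against 10.84 to 11.93 in B16F10, a 40.1-fold lower level. Rab27a was at 6.36 in MDEC against 9.64 to 10.45 (13.7-fold lower), and Mreg at 6.10 against 9.73 to 10.29 (13.9-fold lower). Myo5a, which also carries cargo in neurons and other cells, was less far apart, at 7.78 in MDEC against 9.50 to 10.32 (4.09-fold lower). This difference of −2.03 is just past the 4-fold line of 2 units, and it fell short of it without clone A4 (−1.96), without clone A1 (−1.91), against parental cells alone (−1.72) and after quantile normalization (−1.96), which leaves 5 genes. Rab38 was at 5.75 in MDEC against 10.86 to 11.35 in B16F10 (41.5-fold lower), while Rab32, its relative with a wider expression in other cells, was at 8.05 against 8.29 to 9.71 (2.04-fold lower). Rab32 in clone A1, at 8.29, was nearer to MDEC than to the PECAM1+ clones.

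Gpnmb was at 8.08 in MDEC against 12.89 to 13.19 in B16F10 (31.0-fold lower). Trpm1 was at 6.01 in MDEC against 6.53 to 8.51 (2.76-fold lower), and clone A3 lay nearer to MDEC than to clone A4. Hps5 was at 6.52 against 7.75 to 8.27 (2.73-fold lower). Hps4 was at 8.07 in MDEC against 7.96 to 8.58 in B16F10, inside their range, and its MDEC value equalled that of clone A5. Of 9 leukocyte markers, 4 were higher in MDEC than on every B16F10 array. Their mean level was 6.54 in MDEC against 5.21 to 5.49 in B16F10. Cd53 was at 11.00 in MDEC against 3.93 to 4.23 and Cd68 at 11.18 against 7.52 to 10.07, while Ptprc, the pan-leukocyte gene, was at 4.99 against 4.96 to 5.15. Of the other markers that were higher, Cd14 was at 6.37 against 5.06 to 5.28. Itgam, below the array medians, was at 4.84 against 4.64 to 4.83. Adgre1, Csf1r, Tyrobp and Fcgr3 were, like Ptprc, inside the B16F10 range and below the array medians. The part of leukocyte markers in the MDEC values was not tested.

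**Figure D4:**
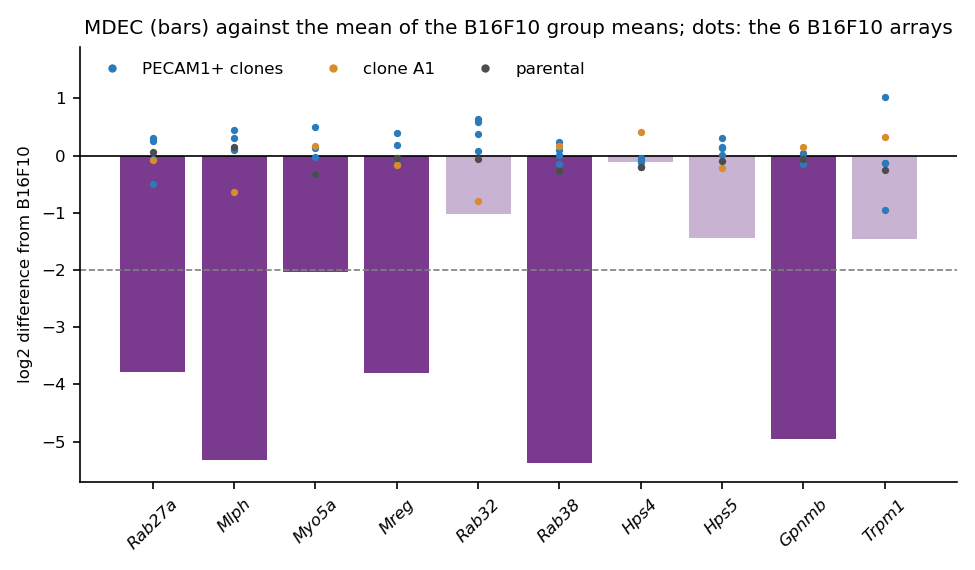
Log2 difference of MDEC (bars) from the average of the PECAM1+ and PECAM1− means for each of the 10 genes, with the 6 B16F10 arrays as dots around 0. The dashed line marks 4-fold lower: 6 bars pass it, from Myo5a (−2.03) to Rab38 (−5.38), and Hps4 (−0.10) stays among the dots.

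The wider machinery was described from 12 lists of 83 further genes, all of them measured, covering endosomal sorting complexes, Rab27 partners, motors, other TRPM channels, cargo and pigment lineage factors. Of these 83, 0 passed the limma test against both PECAM1− samples or against parental cells alone (0.0100% of all genes each). Against clone A1 alone 22 passed, 5 as higher and 17 as lower in the PECAM1+ clones (9.33% and 11.2% of all genes). The 22 are 26.5% of the 83, and 20.5% of all genes passed.

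The calls against clone A1 were spread over most of the lists. Beside the share of all genes given above, the counts per list are not read as a result about any complex. Hps1, whose product pairs with Hps4 in BLOC-3, was at 7.40 to 7.45 in the PECAM1+ clones against 7.93 in clone A1 and 7.52 in parental cells (−0.50 against clone A1, limma adjusted p = 0.00832). With Hps4, 2 of 5 genes of BLOC-2 and BLOC-3 fell and 0 rose, while the BLOC-2 genes Hps3 (−0.59, limma adjusted p = 0.370) and Hps5 (0.37, limma adjusted p = 0.123) did not pass. In BLOC-1, Bloc1s3 (−0.74) and Snapin (−0.41) fell and Dtnbp1, the dysbindin gene, rose (0.51), 3 of 8 genes in all. Among 6 genes of HOPS, the tethering complex of late endosomes, Vps18 (−0.87) and Vps11 (−0.55) fell. Of 8 genes of AP-1 and recycling endosomes, Ap1g1 (−1.06) and Kif13a (−0.57), a kinesin that carries melanosome cargo, fell and Ap1s1 (0.76) rose. In AP-3, 0 of 5 passed. Rab escort protein genes Chm (−0.67) and Chml (−0.69) fell, among 4 genes of Rab prenylation, and of 5 late endosomal Rab genes Rab9b (−0.88) and Rab7 (−0.28) fell. Against parental cells alone the differences were smaller, and some went the other way. They were 0.56 for Chm, 0.10 for Bloc1s3, 0.14 for Snapin, 0.17 for Vps11 and 0.09 for Kif13a. Hps1 differed by −0.09, Vps18 by −0.05, Ap1g1 by −0.41, Chml by −0.01, Rab9b by −0.12 and Rab7 by −0.03. Dtnbp1 differed by 0.25 and Ap1s1 by 0.08. Chml lay at 5.80 to 6.07 in the clones, below the array medians, and Rab9b at 6.13 to 6.37, near them. Falls and rises named here are relative to clone A1. The limma adjusted p of the genes named here as fallen or risen lay between 0.00452 and 0.0401.

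Among partners of the transport complex, genes that passed against clone A1 lay on both sides. As 20.5% of all genes passed there, the counts are not read as a result about these partners. Of 12 relatives, effectors and regulators of Rab27, Madd, which encodes an exchange factor for Rab3 and Rab27 proteins, fell against clone A1 (−0.48, limma adjusted p = 0.0163) and Myrip rose (0.21, limma adjusted p = 0.0165). Against parental cells both Madd and Myrip differed by −0.12. Myrip lay at 6.00 to 6.33 in B16F10, near the array medians, with an identical value in clones A2, A4 and A5. Sytl2, which encodes a Rab27 effector, was at 9.42, 8.52, 9.35 and 9.33 in clones A2, A3, A4 and A5, against 9.65 in clone A1 and 9.44 in parental cells. Clone A3 was the lowest B16F10 array, as for Rab27a. Sytl2 was at 4.87 in MDEC, below the array medians, against 8.52 to 9.65 in B16F10. Rab27b, the close relative of Rab27a, gave 4.94 in MDEC against 4.68 to 5.13 in B16F10, below the array medians throughout. Among motor genes, the dynein and myosin V light chain genes went apart, with Dynll2 lower (−0.76, limma adjusted p = 0.00928) and Dynll1 higher (0.38, limma adjusted p = 0.0119) than in clone A1, and Rilp was lower too (−0.25, limma adjusted p = 0.0251), 3 of 8 genes. Against parental cells Dynll2 differed by −0.23, Dynll1 by 0.08 and Rilp by −0.24. Rilp lay at 5.57 to 5.85 in B16F10, below the array medians. Myo7a, another melanosome motor gene, was at 7.03 in MDEC against 9.05 to 9.77 in B16F10. Rab17, known for melanosome release in melanocytes, was at 7.50, 6.72, 8.18 and 8.16 in clones A2, A3, A4 and A5, against 7.21 in clone A1 and 7.14 in parental cells.

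Of the other TRPM channels, Trpm4 fell against clone A1 (−1.17, limma adjusted p = 0.0191), as did Trpm8 by 0.09 at levels from 4.78 to 4.88 in B16F10. Trpm4 lay at 6.18 to 6.48 in the PECAM1+ clones, near the array medians, so its difference may be understated. Against parental cells Trpm4 differed by −0.19 and Trpm8 by −0.001. Among the 7 other TRPM channels, Trpm4 had a range of 1.32 over the B16F10 arrays, against 1.98 for Trpm1, and 0 were 4-fold from B16F10 in MDEC. Trpm2, Trpm3, Trpm5, Trpm6 and Trpm8 lay below the array medians on every array, so they cannot show a lower level in MDEC. Cargo genes gave 0 of 9 calls in any comparison, with Tyr 1.79 ± 0.48 (SE) above parental cells (limma adjusted p = 0.270) and Gpr143 0.81 ± 0.50 above them (0.641). Among pigment lineage factors Tfe3, a relative of Mitf that acts on lysosomal genes, fell against clone A1 (−1.10, limma adjusted p = 0.0252) and Pax3 rose (0.35, limma adjusted p = 0.0242), while Mitf did not pass (0.39 ± 0.19, limma adjusted p = 0.269). Against parental cells Tfe3 differed by −0.08 and Pax3 by −0.17. Tfec, another relative of Mitf, was at 10.46 in MDEC against 4.29 to 4.61 in B16F10, and Mitf at 7.34 against 11.37 to 11.95. Over the 83 genes, 13 were 4-fold or more lower in MDEC than in B16F10, 8 of them cargo genes, and 1, Tfec, was higher.

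**Figure D5:**
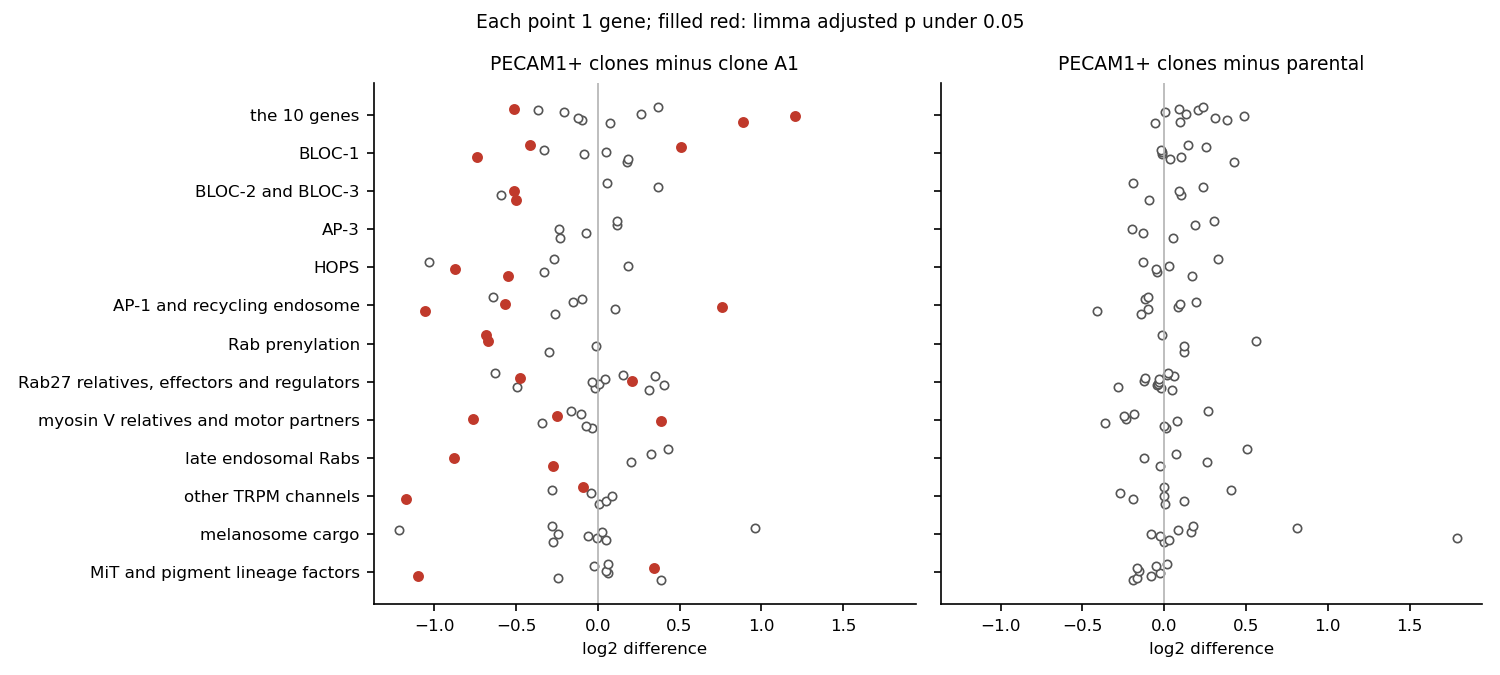
Log2 difference of the PECAM1+ clones from clone A1 (left) and parental cells (right), each point 1 gene, for the 10 genes and 12 wider lists; filled red points have a limma adjusted p under 0.05. Calls appear on the left only, from Trpm4 (−1.17) to Rab32 (1.21).

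For genes with a range of at least 1 unit over the 6 B16F10 arrays, the 3 other genes nearest in profile were sought, by the root mean square distance between profiles centred on their mean. Nearest to Trpm1 were Gpr37 (0.23), Cyp2j6 (0.24) and Fabp7 (0.25). All of them were highest in clone A4 and next highest in clone A1, as Trpm1 was. They were picked for likeness to it, so the shared order follows from the search. Fabp7, a fatty acid binding protein gene of neural crest and glial cells, was at 10.10, 9.63, 11.53 and 9.98 in clones A2, A3, A4 and A5, against 10.37 in clone A1 and 9.63 in parental cells. Nearest to Mlph were Plekhg3 (0.05), Zw10 (0.06) and Mtbp (0.06), which were lowest in clone A1, again by the way they were picked. Nearest to Rab32 were Fat1 (0.11), Inka2 (0.13) and Tnfaip6 (0.14). The 6 points of a profile share no replicate, and no test was made of these distances.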

How the data were processed

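The deposited table holds log2 expression levels from the authors, 1 column per array and 35557 probe sets. Per the submitters' processing notes the software was Partek. Its version, the background correction, the summarisation, the normalization and the genome build stay unknown (not given in the sources). Probe sets were named from the platform annotation: 21789 had 1 gene symbol, 1621 several and 12147 none. The brightest probe set stood for a gene, which left 19938 genes, and each of the 10 genes described had 1 probe set. No per-sample column was left unused (0).

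Fits used limma 3.58.1 in R 4.3.3 (lmFit, eBayes with trend) over all 19938 genes and the B16F10 arrays of a comparison, with Benjamini-Hochberg adjustment and a threshold of 0.05. MDEC had no test. The fit was tested on simulated data. Alternatives were quantile normalization, median centring, a filter on dim genes (mean under 6), robust eBayes, eBayes without trend, array weights, other probe set rules and leaving out each array. The genes and lists were chosen with earlier results of these data known. Genes named from the lists were the 3 largest differences per list and comparison. Other listed genes that passed, and Rab27b, Rab17, Mir211, Lef1, Usf1 and the leukocyte markers, were named after their values were seen. Arrays carry no counts, so their number limits the precision.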

Additional observations from a re-analysis of the deposited data

Results flagged for a closer look

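Among 70 genes of the lists, 5 had a clone whose gap to the nearest other clone, divided by the range of the 4 PECAM1+ clones, exceeded Dixon's 95% critical value for 4 samples. None of the 10 genes described did (0 of 10), and chance flags about 1 in 20 groups. Sytl2, which encodes a Rab27 effector, had a ratio of 0.903: clone A3 was at 8.52 and the other clones between 9.33 and 9.42. Trpm6 had a ratio of 0.872, with clone A2 at 4.49 and the others between 4.66 and 4.69. Trpm3 had a ratio of 0.992, with clone A4 at 5.40 and the others at 5.20. Myrip had a ratio of 1, with clone A3 at 6.22 and an identical 6.20 in the other clones. Trpm8 had a ratio of 1, with clone A2 at 4.78 and an identical 4.79 in the others. The TRPM values lie below the array medians, and 6.86% to 13.1% of all genes had identical values in a pair of arrays.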

How the results depend on the processing

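Against both PECAM1− samples, 2 genes of 19938 were called, against 6 after quantile normalization, 6 after median centring, 5 with the filter on dim genes, 5 with robust eBayes, 1 over all probe sets and 1 with array weights. With 1 array left out it ranged from 1 to 4089; it was 4089 without parental cells, where 3 of the 10 genes described were called instead of 0. Against clone A1 alone, 4089 genes and 3 of the 10 were called, and with 1 clone left out these ranged from 2108 (without A5; 2208 without A3) to 3526 and from 0 to 2. Against parental cells, 2 genes were called, against 8 after median centring, 1 with the filter on dim genes, 1 over all probe sets and 0 to 1 with 1 clone left out. In MDEC, 400 genes were 4-fold lower, and 1367 were at least 2-fold lower. The cause was not tested.

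In the 3 comparisons of the PECAM1+ clones, 19 recomputed differences of the 10 genes changed sign, and each was uncalled. In MDEC the difference of Hps4 (−0.10) also changed sign, to 0.095 against parental cells alone and 0.049 without clone A1. Against both PECAM1− samples Rab27a was −0.077 with array weights, −0.054 without clone A1, −0.091 without A2 and −0.075 without A4. There, without parental cells, Myo5a was −0.098 and Rab38 −0.12, and Myo5a was −0.000455 without A4. Without clone A1, Gpnmb was 0.003125, Trpm1 0.21 and Hps4 0.093, and Trpm1 was 0.22 without A3. Against clone A1, Rab27a was −0.026 without A2 and −0.011 without A4, and Myo5a 0.033 without A3. Against parental cells, Gpnmb was −0.00138 after median centring, −0.00227 without A2 and −0.027 without A4. There Rab27a was 0.11 without A3 and Trpm1 −0.15 without A4. No paired analysis was possible because the labels give the groups no shared replicate numbers. Scalings moved the median of all genes by at most 0.03.

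The data are limited by 1 array per sample, by 1 or 2 PECAM1− samples and by 1 MDEC array. Signals near background compress differences, and no detection call or depth was used here.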
